A study of Mus musculus with 2 samples.

Results

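The cells described here are blood endothelial cells (BEC, a cell class assigned by the authors) from the abdominal aorta of mice given LCWE that carried transcripts of at least 1 of 4 genes, Aplnr, Fam167b, Tmem252 and Glycam1. A cell was taken when its unique molecular identifiers (UMIs, each standing for 1 captured transcript molecule) of the 4 genes summed to 1 or more. The rule held in 113 of 239 BEC of the LCWE library, which has 5091 cells among the 10477 of the study, and the other 126 BEC of that library had 0 such UMIs. The working name for the cells was venule-like. As set out below, some vein genes were found in most of the 113 cells (Plvap in 93.8%) and others in a minority (Nr2f2 in 31 cells). Many of the cells also carried artery genes, so they are called marker-positive BEC here.

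The study compared cells of the abdominal aorta of wild-type C57BL/6J mice 2 weeks after injection of LCWE or of PBS. LCWE is a cell wall extract of Lactobacillus casei that causes an arteritis in mice used as a model of Kawasaki disease, and PBS is the saline control. A pool of 7 aortas made up the LCWE library and a pool of 9 aortas the PBS library, and both were dissociated with enzymes, depleted of dead cells and sequenced as 3′ droplet libraries. With 1 library per condition there is no replicate and no test: intervals are exact 95% intervals that cover counting error only, not differences between mice or libraries.

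Endothelium differs along the vascular tree: arterial endothelium lies on elastic fibres and is joined by connexins such as Gja5, capillary endothelium takes up fatty acids, and venular endothelium is the usual gate for leukocytes. In large arteries, small vessels of the outer wall, the vasa vasorum, carry capillary and venous endothelium. Aplnr encodes the receptor of the peptide apelin and marks growing vessels and veins, while Glycam1 encodes a mucin best known from high endothelial venules of lymph nodes, where it carries the sugar ligand of L-selectin. The roles of Fam167b and Tmem252 are little studied. Plvap forms the diaphragms of fenestrae and caveolae and is typical of venules and fenestrated capillaries.

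The 4 selection genes lie on different chromosomes (GRCm38): Aplnr at chr2:85136225-85139923 on the plus strand, Fam167b at chr4:129576815-129578549 on the minus strand, Tmem252 at chr19:24674008-24682233 on the plus strand and Glycam1 at chr15:103562759-103565081 on the minus strand. Promoters from RefSeq (GRCm38.p6) are shown for Fam167b, Tmem252 and Glycam1, because these genes pick out the cells and overlapped in many of them. Promoters of Aplnr and Plvap are not shown. Each is 300 bases read 5′ to 3′ on the gene's own strand, at chr4:129578531-129578830 (minus), chr19:24673758-24674057 (plus) and chr15:103565032-103565331 (minus). Capitals mark matches, on either strand, to 6 short motifs of factors active in endothelium, spelled out after the sequences, and no matches overlap in these windows.
Fam167b: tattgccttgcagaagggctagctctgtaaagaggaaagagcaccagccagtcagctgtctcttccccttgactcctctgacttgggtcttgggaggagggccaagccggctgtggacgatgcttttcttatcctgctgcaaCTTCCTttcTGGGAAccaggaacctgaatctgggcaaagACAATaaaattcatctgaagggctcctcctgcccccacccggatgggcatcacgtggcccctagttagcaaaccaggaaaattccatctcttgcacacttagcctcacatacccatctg
Tmem252: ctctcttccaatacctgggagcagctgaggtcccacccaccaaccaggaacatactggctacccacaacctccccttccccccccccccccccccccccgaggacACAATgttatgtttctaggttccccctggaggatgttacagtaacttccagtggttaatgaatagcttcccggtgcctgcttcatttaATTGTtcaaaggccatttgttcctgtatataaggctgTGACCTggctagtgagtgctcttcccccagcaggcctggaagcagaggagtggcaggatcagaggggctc
Glycam1: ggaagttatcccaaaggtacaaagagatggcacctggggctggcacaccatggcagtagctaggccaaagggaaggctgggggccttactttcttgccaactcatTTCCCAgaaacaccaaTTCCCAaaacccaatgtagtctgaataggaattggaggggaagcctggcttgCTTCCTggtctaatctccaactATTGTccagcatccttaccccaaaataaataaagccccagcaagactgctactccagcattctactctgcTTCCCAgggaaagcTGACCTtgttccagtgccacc
The letters of the SOX motif, ATTGT, stood in all 3 windows, 1 time in Fam167b and Glycam1 and 2 times in Tmem252, and 31% of 32851 mouse promoters of this length hold them. The ETS motif, AGGAAG (35.4% of promoters), stood 1 time each in Fam167b and Glycam1. The nuclear receptor half-site, AGGTCA (16.3%), stood 1 time each in Tmem252 and Glycam1. The RBPJ motif, TGGGAA (25.6%), stood 1 time in Fam167b and 3 times in Glycam1. Neither the AP-1 motif TGANTCA (7.81%) nor the GATA motif AGATAA (11.2%) was in these windows. These motifs are frequent, and a match is a description of the letters only.

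The selection genes were found in different combinations among the cells. The cells were selected on these UMIs, which are given as a description with no comparison drawn from them. Tmem252 was found in 85 of the 113 cells (292 UMIs), Fam167b in 60 (218 UMIs), Glycam1 in 43 (376 UMIs) and Aplnr in 29 (299 UMIs). Aplnr came with Tmem252 in 26 of its 29 cells and with Fam167b in 24, and in no cell alone. Glycam1 came with Tmem252 in 26 of its 43 cells and with Fam167b in 19, and it was the sole selection gene in 14. Aplnr and Glycam1 met in 1 cell. Both overlapped with the 2 less studied genes, and no cell held all 4. The rule takes a cell with any of the 4 genes, which by itself lowers their overlap among the 113 cells. No conclusion is drawn from it.

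**Figure D1:**
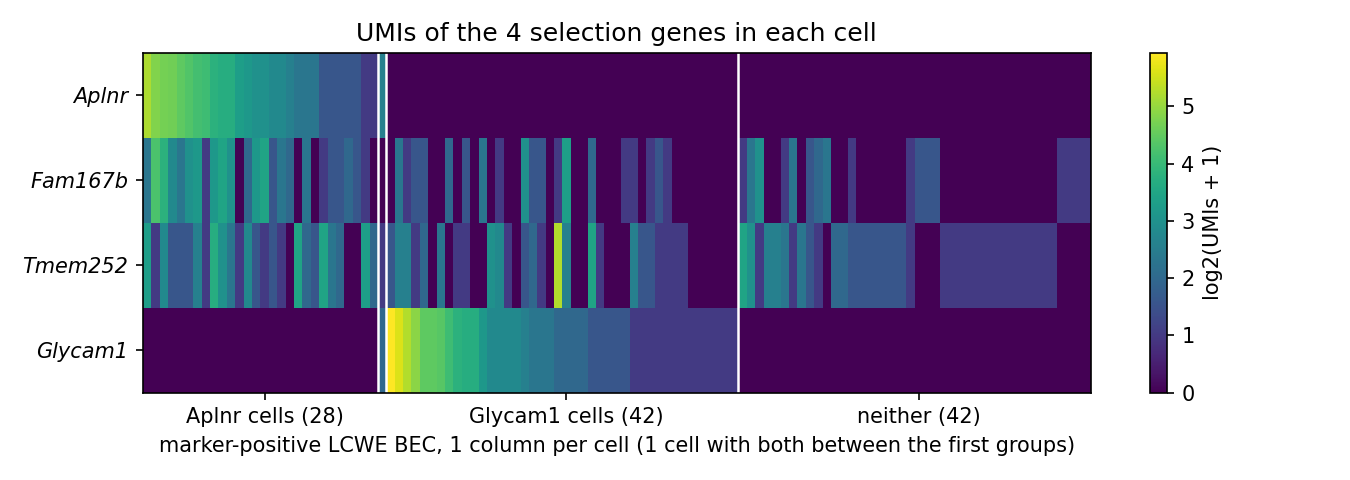
UMIs of the 4 selection genes (rows, colour on a log2(UMIs + 1) scale) in each marker-positive LCWE BEC (columns), ordered as Aplnr cells (28), the 1 cell with both genes, Glycam1 cells (42) and cells with neither (42). The upper and lower rows are bright in different columns, while Fam167b and Tmem252 are spread over all sets.

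The summed UMIs of the 4 genes ran from 1 to 62 per cell with a median of 5. The threshold was passed by 24 cells with 1 UMI, 32 with 2 to 4, 16 with 5 to 9 and 41 with 10 or more. Cells just inside the threshold were close to those just outside for some genes and apart from them for others. Nr2f2, a transcription factor of venous identity, summed to 5.73 CPM (UMIs summed over a set of cells and scaled to counts per 1e+06 UMIs of that set) in cells with 1 UMI and 6.01 CPM in cells with 0. Elastin (Eln) summed to 9014 CPM in cells with 1 UMI and 10144 CPM in cells with 0, and Plvap to 370 and 290 CPM. By contrast, Emcn summed to 444 CPM in cells with 1 UMI and 118 CPM in cells with 0, Kdr to 77.4 and 23.2 CPM, Mdk to 264 and 72.1 CPM, and Klk10 to 17.2 and 128 CPM. Cells with 10 or more UMIs differed more, with 81.6 CPM for Nr2f2, 2519 CPM for Eln and 1200 CPM for Plvap. Plvap, which was not part of the rule, was found in 93.8% of marker-positive BEC, 61.9% of the other LCWE BEC and 52.1% of PBS BEC.

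Marker-positive cells made up 47.3% of LCWE BEC (interval 40.8 to 53.8) and 1.84% of PBS BEC (4 of 217 cells, 0.504 to 4.65). The depth of the cells differed between these sets, with a median of 10121 UMIs in LCWE BEC and 5846 in PBS BEC. With every cell thinned to 3000 UMIs and shallower cells left out, the share was 31.9% in LCWE (72 of 226 cells, 25.8 to 38.4) and 0.532% in PBS (1 of 188 cells, 0.0135 to 2.93). Free RNA in the droplets sets a floor to such shares. T, NK and B cells of the LCWE library, which should lack these transcripts, met the rule in 15 of 2422 cells (0.619%, 0.347 to 1.02) at a median of 3879 UMIs, and in 0.377% after thinning. In the PBS library 9 of 5140 non-endothelial cells met it (0.175%, 0.0801 to 0.332). The interval of the PBS BEC share includes the value of the LCWE lymphocytes and lies above that of the other PBS cells. With 4 PBS cells, expression was not compared within the rule between the libraries, and the PBS comparisons below use all 217 PBS BEC.

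**Figure D2:**
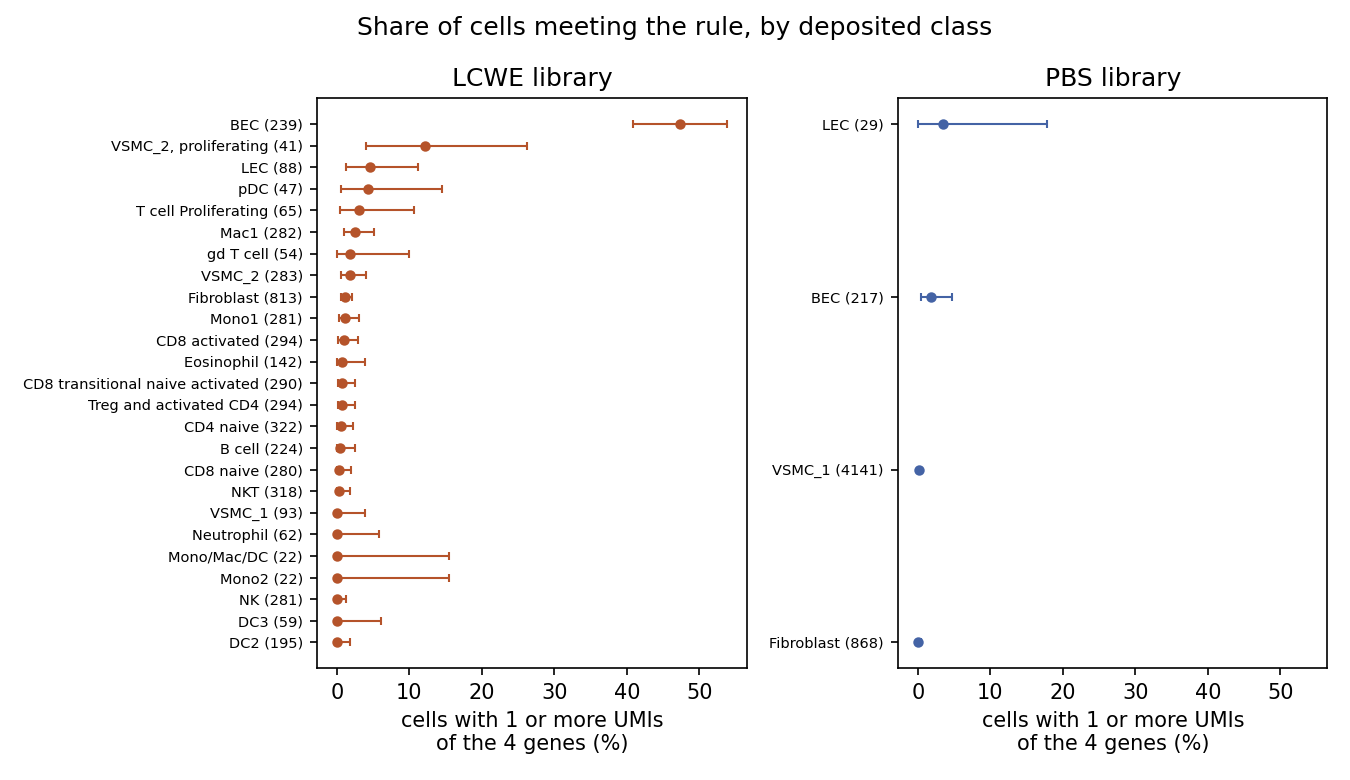
Share of cells (%, points, with exact 95% intervals as bars) that meet the rule in each deposited class of the LCWE library (left) and the PBS library (right), with the number of cells in brackets. LCWE BEC stand at 47.3%, and every other class shown has a point under 13%.

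Outside BEC the transcripts were rare. In the LCWE library 47 of 4764 non-endothelial cells met the rule (0.987%), and 4 of 88 lymphatic endothelial cells did (4.55%, 1.25 to 11.2). The highest share outside BEC was that of proliferating VSMC_2, a smooth muscle class, with 5 of 41 cells (12.2%, 4.08 to 26.2) at a median of 26038 UMIs, and 4.88% after thinning. Plasmacytoid dendritic cells (pDC) gave 2 of 47 (4.26%, 0.520 to 14.5). Glycam1 was the exception in amount: 3 of these lymphatic cells held 54 UMIs of it. By the rule, all UMIs of the 4 genes in LCWE BEC lie in the 113 cells, which in part fixes their shares of the library. The 113 cells held 94.2% of all Tmem252 UMIs of the LCWE library, 91.7% of Aplnr, 90.1% of Fam167b and 83.6% of Glycam1. Of Plvap, which was not selected on, they held 50.2%, and these shares are not compared.

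The 113 cells were deeper than their neighbours, with a median of 14314 UMIs (1966 to 45010) against 6974 in the other LCWE BEC and 5846 in PBS BEC, which makes it easier for a cell to hold 1 UMI of a selection gene. Their median mitochondrial share was 5.19%, against 6.44% in the other LCWE BEC and 6.23% in PBS BEC. The median doublet score in the deposited cell table was 0.0629 in the 113 cells, 0.0420 in the other LCWE BEC and 0.0228 in PBS BEC. The part of depth and doublets in the results was not tested. Values after thinning or after leaving out cells are given below for some results only, and others moved as well. All 113 cells held the endothelial adhesion molecule Pecam1, at 1378 CPM against 2538 CPM in the other LCWE BEC. Of the barcodes, 8 occur in both libraries, 1 of them in an LCWE BEC.

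Against the other LCWE BEC, marker-positive cells had more transcripts of capillary and growing-vessel genes and of basement membrane collagens, and fewer of artery genes. A gene was counted as measured with 20 or more UMIs in both sets together, and as higher or lower at 2-fold or more. Of 9460 measured genes, 559 (5.91%) were higher and 527 (5.57%) lower. Of 17 capillary genes 12 were measured and 10 were higher and 0 lower, with a median log2 ratio of 2.02 against 0.04 over all measured genes. Of 16 genes of tip cells (the leading cells of sprouts) and angiogenesis 14 were measured, 10 higher and 0 lower (median 1.17), and of 21 basement membrane and matrix genes 8 were higher and 2 lower (median 0.74). Of 22 artery genes 21 were measured, 1 higher and 6 lower (median -0.62). Except in the artery list, the share of higher genes exceeds the 5.91% found over all genes. Among 18 venule and vein genes 6 were higher and 2 lower (median 0.78).

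Col15a1, a collagen of vascular basement membranes, had 279 CPM (256 to 305) in marker-positive BEC and 6.86 CPM in the other LCWE BEC, a ratio of 40.7 (20.5 to 94.8). Nrp2, a co-receptor for VEGF found on veins and lymphatics, had 101 and 5.15 CPM (ratio 19.7, 8.86 to 54.3). Kdr, the main VEGF receptor, had 226 and 23.2 CPM (9.77, 6.61 to 15). Igfbp7, a secreted binding protein abundant in tumour and capillary vessels, had 1604 and 165 CPM (9.74, 8.41 to 11.3) and was found in 81.4% and 40.5% of the cells. Nr2f2 had 61.4 and 6.01 CPM (10.2, 4.80 to 26). Angpt2, the vessel-destabilising angiopoietin of sprouting endothelium, had 78.0 and 6.86 CPM (11.4, 5.61 to 26.8). Each of these transcripts also occurred in the other LCWE BEC, at a low level.

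The list of the 20 most raised genes further held the neurokinin receptor Tacr1 (58 UMIs against 0, at least 12.5-fold over a floor of 3 UMIs per set), the reductase Akr1b8 (63 against 2 UMIs, 5.39 to 171), the protocadherin Pcdh17 (11.8-fold), the basement membrane protein Nid2 (12.4-fold) and the protease Adamts4 (15.7-fold). Transcription factors among them were Meox1 (9.93-fold), Ebf3 (8.81-fold) and Lhx6 (39 UMIs against 1). The cytokine Il6 had 45.4 CPM against 4.29 CPM (10.6-fold, 4.35 to 33.4). Chst2, a sulfotransferase that helps to make L-selectin ligands, had 40 UMIs against 3. The remaining genes of that list were Smagp, Hecw2, Cd300lg and Angptl4.

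Among the 10 most reduced genes, Klk10, a kallikrein-related protease that responds to flow, had 7.19 CPM (3.83 to 12.3) in marker-positive BEC, 128 CPM in the other LCWE BEC and 716 CPM in PBS BEC. The potassium channel Kcnn3, which takes part in endothelial relaxation of arteries, had 1.66, 32.6 and 44.4 CPM in the same sets. The adrenergic receptor Adra2c had 1 UMI in the 113 cells against 40 in the other LCWE BEC. Pcolce2, an enhancer of collagen processing, had 11.1, 128 and 376 CPM. The other 6 were Flrt1, Pkhd1l1, Crispld1, Atp2b2, Clic5 and Serpina1e, with ratios of 0.0174 to 0.0911. For Klk10, Pkhd1l1, Clic5 and Pcolce2 the other LCWE BEC stood between the marker-positive cells and PBS BEC and well apart from both.

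Averages over the 113 cells hide a split. The cells were divided by Aplnr and Glycam1 into Aplnr cells (28, Aplnr without Glycam1), Glycam1 cells (42, Glycam1 without Aplnr), 42 cells with neither and 1 cell with both, which is left out below; this division was chosen after the values had been seen. Median depth was 11720 UMIs in Aplnr cells, 17014 in Glycam1 cells and 12558 in cells with neither. Counts of genes past 2-fold depend on the total UMIs of the sets, so they are not ranked here. These totals were 385535 in Aplnr cells, 839845 in Glycam1 cells and 1165334 in the other LCWE BEC. Of 6916 genes measured between Aplnr and Glycam1 cells, 670 (9.69%) were higher and 827 (12%) lower in Aplnr cells. Between Aplnr cells and the other LCWE BEC 700 (9.03%) of 7756 were higher and 1077 (13.9%) lower. Between Glycam1 cells and the other LCWE BEC 423 (5.03%) of 8406 genes were higher and 652 (7.76%) lower. Against PBS BEC, 1032 (12.3%) genes were higher and 1387 (16.5%) lower in Aplnr cells, and 847 (9.53%) higher and 1099 (12.4%) lower in Glycam1 cells.

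Aplnr cells carried capillary genes, some vein genes and few artery transcripts. Of 11 capillary genes measured against Glycam1 cells all 11 were higher, with a median log2 ratio of 3.93. Fabp4, the fatty acid binding protein of capillaries, had 2171 CPM (2026 to 2323) in Aplnr cells, 7.14 CPM in Glycam1 cells, 191 CPM in the other LCWE BEC and 11.4 CPM in PBS BEC. Gpihbp1, which holds lipoprotein lipase on the capillary surface, had 67 UMIs in Aplnr cells and 1 in Glycam1 cells (146-fold, 25.3 to 5847). Cd36, a fatty acid transporter, had 161 and 3.57 CPM, and Rgcc, a cell cycle regulator enriched in capillaries, 457 and 14.3 CPM. Kdr had 651 and 127 CPM (5.11, 4.06 to 6.47). Fabp4 was found in 89.3% of Aplnr cells and 9.52% of Glycam1 cells, so it was shared by most of the first set and not carried by a few of its cells.

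Vein genes followed the same division only in part. Nr2f2 had 163 CPM (126 to 209) in Aplnr cells, 3.57 CPM in Glycam1 cells, 6.01 CPM in the other LCWE BEC and 5.40 CPM in PBS BEC. Nrp2 had 288 CPM in Aplnr cells and 20.2 CPM in Glycam1 cells (14.2, 8.49 to 25.3). Csf2rb, the common chain of the receptors for GM-CSF, IL-3 and IL-5, had 205 and 8.33 CPM. Of 18 venule and vein genes 8 were higher and 5 lower in Aplnr cells than in Glycam1 cells. The summed list was lowest in Aplnr cells, with a median of 5742 CPM per cell against 9231 CPM in Glycam1 cells. It was 8588 CPM in the other LCWE BEC and 12488 CPM in PBS BEC. Selectin P (Selp), which tethers leukocytes, had 428 and 419 CPM (1.02, 0.844 to 1.23) and was found in 46.4% of Aplnr cells, 1 of which held 43.6% of their Selp UMIs, against 95.2% of Glycam1 cells. Von Willebrand factor (Vwf) was lower in Aplnr cells, at 301 against 1540 CPM. Ackr1, the chemokine-binding receptor of venules, had 51.9 CPM in Aplnr cells, with 70.0% of its UMIs in 1 cell, and 10.7 CPM in Glycam1 cells. E-selectin (Sele) had 226 and 59.5 CPM, with 49.4% of the UMIs of Aplnr cells in 1 cell. Selp was thus common in Glycam1 cells and in cells with neither gene (78.6%), and less so in Aplnr cells, while Ackr1 and Sele were found in a minority of each set.

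**Figure D3:**
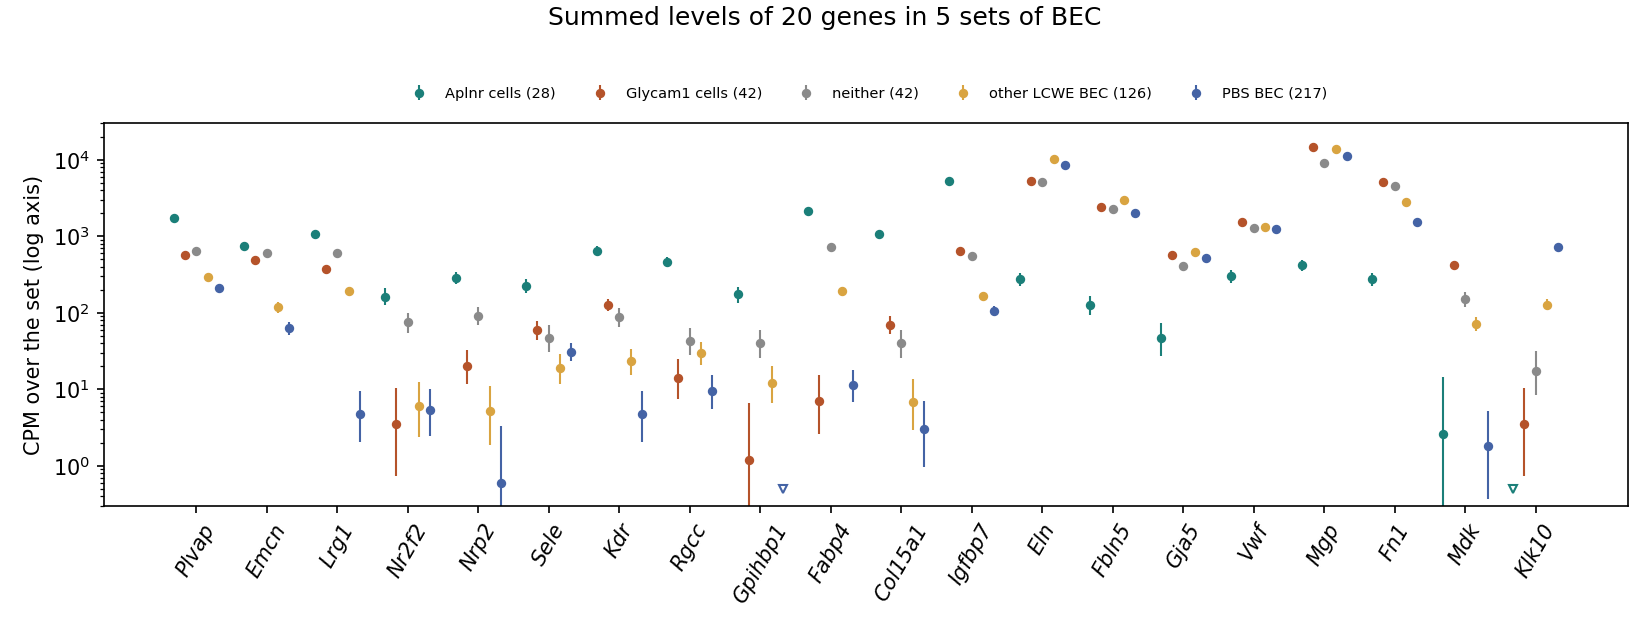
Summed level (CPM on a log axis, points, with exact 95% Poisson intervals) of 20 genes in Aplnr cells, Glycam1 cells, cells with neither, other LCWE BEC and PBS BEC, with open triangles for genes at 0 UMIs. Aplnr cells lie highest for Fabp4 (2171 CPM) and lowest for Eln (275 CPM), Fbln5 and Mgp, where the other sets lie together.

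Artery genes were low in Aplnr cells, and in Glycam1 cells most lay within 2-fold of the other LCWE BEC. Of 20 artery genes measured between them, 2 were higher and 8 lower in Aplnr cells (median -0.92). Against the other LCWE BEC, 12 of 20 were lower in Aplnr cells (median -1.61) and 4 of 20 in Glycam1 cells (median -0.11). Eln, the protein of elastic fibres, had 275 CPM in Aplnr cells, 5357 CPM in Glycam1 cells, 10144 CPM in the other LCWE BEC and 8619 CPM in PBS BEC, and 1 of the Aplnr cells held 64.2% of their Eln UMIs. Fbln5, which assembles elastic fibres, had 127, 2408, 2996 and 2040 CPM in the same sets, and the arterial connexin Gja5 46.7, 570, 622 and 519 CPM, with 72.2% of the Gja5 UMIs of Aplnr cells in 1 cell. The arterial kinase Bmx had 3 UMIs in Aplnr cells against 158 in Glycam1 cells. Mgp, the matrix Gla protein that limits calcification, had 418 CPM in Aplnr cells and 14749 CPM in Glycam1 cells. Sox17, a transcription factor needed for arterial identity, did not follow them, with 311 and 292 CPM (1.07, 0.850 to 1.33), but 40.8% of its UMIs in Aplnr cells came from 1 cell. Per cell, the summed artery list had a median of 5019 CPM (949 to 27032) in Aplnr cells, 20818 CPM (7040 to 54970) in Glycam1 cells, 28256 CPM in the other LCWE BEC and 29896 CPM in PBS BEC. The ranges of the first pair overlap.

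**Figure D4:**
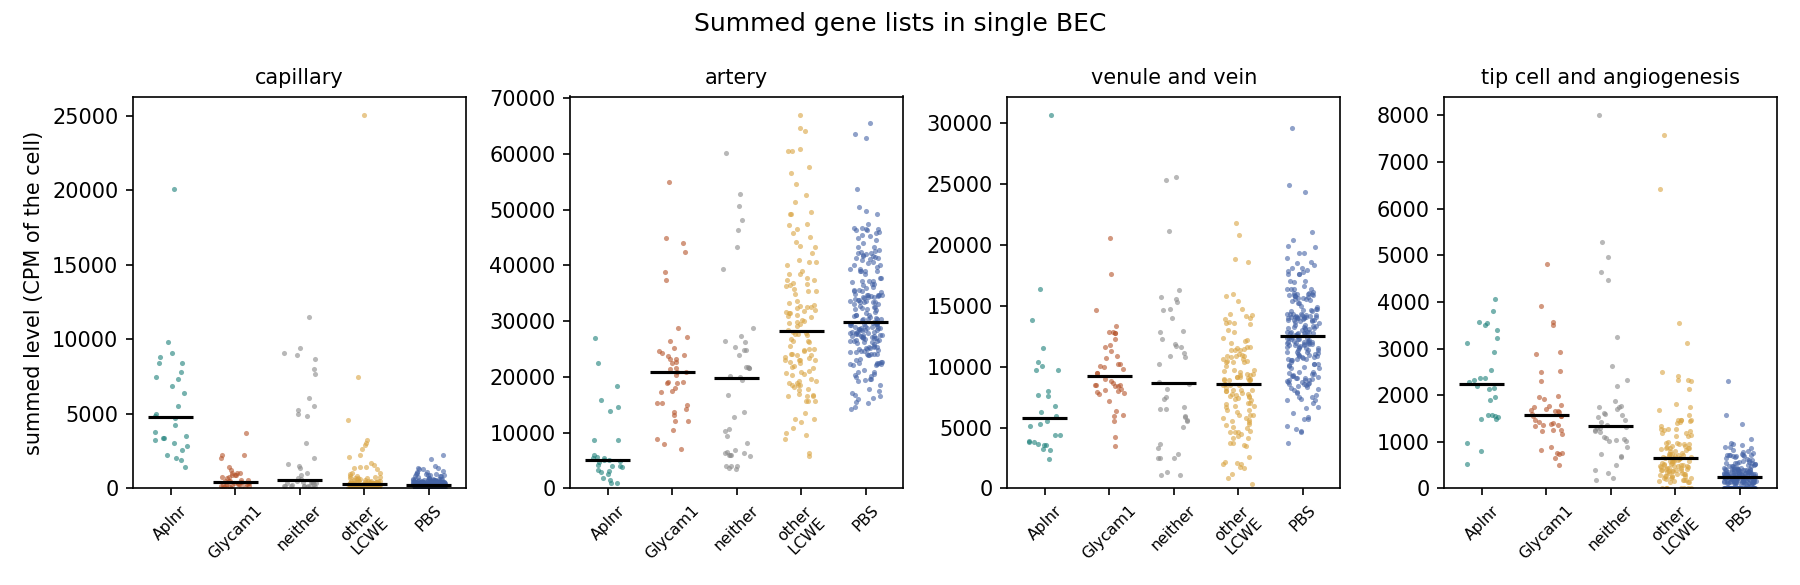
Summed level of 4 gene lists (CPM of the cell) in single BEC, 1 point per cell, with the median as a bar, for Aplnr cells, Glycam1 cells, cells with neither, other LCWE BEC and PBS BEC. For the capillary list the Aplnr cells have a median of 4821 CPM and the Glycam1 cells 425 CPM, and for the artery list the order is turned round.

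Several basement membrane and vessel wall genes were higher in both sets than in the other LCWE BEC. Of 21 genes of the basement membrane and matrix list 9 were higher and 5 lower in Aplnr cells (median 0.21), and 7 higher and 3 lower in Glycam1 cells (median 0.67). The sum of that list was lower in Aplnr cells, at 15285 CPM against 25522 CPM in the other LCWE BEC, and 32185 CPM in Glycam1 cells. Col4a1, a chain of collagen IV, had 2708 CPM in Aplnr cells, 1110 CPM in Glycam1 cells and 496 CPM in the other LCWE BEC. Sparcl1, a matrix glycoprotein, had 934, 341 and 134 CPM. Col15a1 had 1074, 70.3 and 6.86 CPM, and 66.1% of its UMIs in Glycam1 cells came from 1 cell. Igfbp7 had 5208, 639 and 165 CPM. Endomucin (Emcn), a sialomucin of veins and capillaries, had 752, 498 and 118 CPM, and Lrg1, a secreted glycoprotein that modifies TGF-β signalling, 1058, 370 and 191 CPM. Plvap itself had 1746, 579 and 290 CPM. For these genes, chosen after their values were seen, Glycam1 cells lay between Aplnr cells and the other LCWE BEC, with intervals apart for each.

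Several genes of secreted and matrix proteins were higher in Glycam1 cells than in Aplnr cells, although of the 21 genes of the basement membrane and matrix list 11 were higher and 5 lower in Aplnr cells (median 1.05). Mdk, the growth factor midkine, had 2.59 CPM in Aplnr cells, 424 CPM in Glycam1 cells (356 UMIs in 90.5% of the cells), 72.1 CPM in the other LCWE BEC and 1.80 CPM in PBS BEC. Ltbp2, a microfibril protein, had 2.59, 430, 162 and 3.0 CPM in the same sets, and fibronectin (Fn1) 278, 5162, 2822 and 1532 CPM. Thrombospondin 1 (Thbs1) had 57.1, 1546, 644 and 430 CPM. Angpt2 was also carried mainly by Glycam1 cells, at 23.3, 129, 6.86 and 3.0 CPM. Sfrp1, a secreted inhibitor of Wnt signalling, had 2.59 CPM in Aplnr cells and 880 CPM in Glycam1 cells, but 858 CPM in the other LCWE BEC and 1172 CPM in PBS BEC. Sfrp1 was thus low in Aplnr cells alone among these sets, while Mdk was low in both Aplnr cells and PBS BEC and highest in Glycam1 cells.

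High endothelial venule genes accompanied Glycam1 only in part. Chst4, the sulfotransferase of those venules, had 0 UMIs in the Glycam1 cells, the chemokine Ccl21a 0 UMIs and Nr2f2 3 UMIs. Of 14 genes of that list 10 were measured between marker-positive and other LCWE BEC, 3 higher and 1 lower, with a median of -0.12. In Glycam1 cells 2 of 9 measured were higher and 3 lower (median -0.11). Chst2 had 31.1 CPM in Aplnr cells, 25 CPM in Glycam1 cells and 2.57 CPM in the other LCWE BEC. St3gal6, a sialyltransferase, had 83.0, 7.14 and 35.2 CPM.

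Among BEC, 3 contractile transcripts were highest in Glycam1 cells, though not confined to them. Smooth muscle actin (Acta2) had 15.6 CPM in Aplnr cells, 2606 CPM in Glycam1 cells (36 of 42 cells, median 35 UMIs), 610 CPM in the other LCWE BEC, 7413 CPM in VSMC_2 and 20149 CPM in VSMC_1, classes of smooth muscle cells in the LCWE library with 283 and 93 cells. Tagln, an actin-binding protein of smooth muscle, had 25.9, 1141, 230, 3355 and 13773 CPM in these sets, and the myosin light chain Myl9 had 0 UMIs in Aplnr cells, 243 CPM in Glycam1 cells, 895 CPM in VSMC_2 and 5465 CPM in VSMC_1. The later markers of contractile smooth muscle were near 0: Myh11 had 7.14 CPM in Glycam1 cells against 369 CPM in VSMC_2 and 3014 CPM in VSMC_1, Cnn1 2.38 against 330 and 1540 CPM, and Des and Actg2 had 0 UMIs in Glycam1 cells. Lymphocytes of the library held 0.370 UMIs of the 8 smooth muscle markers per cell, Glycam1 cells 80.9. After thinning, with 72 marker-positive cells left, Acta2 no longer was higher over all marker-positive cells than in the other LCWE BEC (log2 ratio -0.11, against 1.5 without thinning). The rule was applied again to the thinned counts, so cells that lost their selection UMIs counted among the 154 other LCWE BEC of that setting.

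The 42 cells with neither gene were a mixture. They were marked by Tmem252 or Fam167b, and their summed capillary list ran from 0 to 11498 CPM per cell with a median of 572 CPM and an upper quartile of 4932 CPM. Their artery list ran from 3391 to 60147 CPM. Summed levels lay between those of Aplnr and Glycam1 cells for Fabp4 (719 CPM), Nr2f2 (74.8 CPM), Mdk (150 CPM) and Eln (5089 CPM lay just under the 5357 CPM of Glycam1 cells). Such sums describe no single kind of cell.

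Clustering of all BEC without the 4 selection genes placed the cells in different groups, given as a description. Cluster 2 held 71 LCWE and 0 PBS cells, of which 51 were marker-positive (71.8%, 59.9 to 81.9), with 36 Glycam1 cells and 0 Aplnr cells. Cluster 4 held 45 LCWE cells and 1 PBS cell, with 30 marker-positive cells (66.7%, 51.0 to 80.0), 21 of them Aplnr cells and 0 Glycam1 cells. Cluster 6 held 17 LCWE cells and 1 PBS cell, and 15 were marker-positive: 5 Aplnr cells, 1 Glycam1 cell, 8 with neither and the 1 with both. Its leading genes included Ackr1, Nr2f2, Nrp2 and Lrg1 of the venule and vein list. Aqp1 and Fabp4 of the capillary list and Insr of the tip cell list were among them too. Cluster 5, with 11 marker-positive of 31 LCWE cells, was led by leukocyte genes such as Lyz2 and is given no name. Clusters 0, 1 and 3, which held 211 of the 217 PBS BEC, took in 6 of the 113 cells. With 1 library per condition, a cluster mostly of 1 library may reflect that library.

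**Figure D5:**
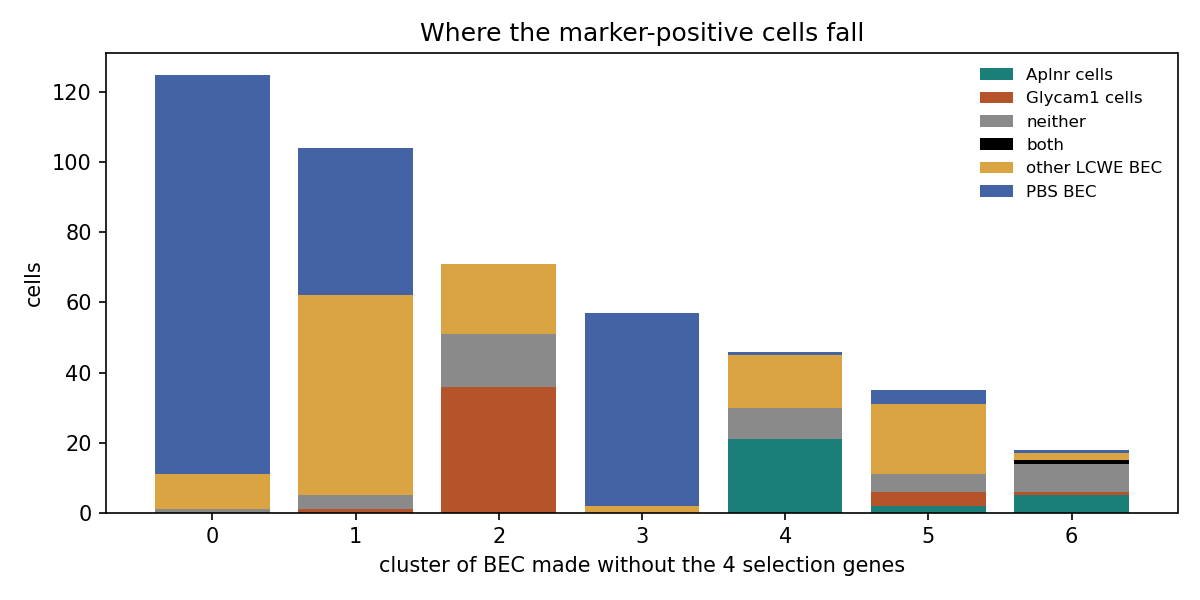
Number of BEC (bars) in each of 7 clusters made without the 4 selection genes, divided into Aplnr cells, Glycam1 cells, cells with neither, the cell with both, other LCWE BEC and PBS BEC. Glycam1 cells sit mostly in cluster 2 (36 cells) and Aplnr cells in cluster 4 (21 cells), while clusters 0 and 3 are mostly PBS BEC.

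Against PBS BEC the marker-positive cells had higher levels of tip cell, capillary and matrix genes, while the size of the rise in cycling genes depended on the setting. Of 9721 measured genes 1141 (11.7%) were higher and 930 (9.57%) lower. Of 14 measured tip cell and angiogenesis genes 13 were higher, of 13 capillary genes 11 higher and 1 lower, of 21 basement membrane and matrix genes 14 higher and 2 lower, and of 13 cycling genes 10 higher. The median log2 ratio of the cycling list was 2.13, and it ran from 0.07 to 2.30 over the settings run. Markers of other cell types were higher too: 5 of 5 measured T and NK cell genes, 3 of 4 macrophage and monocyte genes, 3 of 3 granulocyte genes and 5 of 5 red cell and platelet genes, and their part in the comparison was not tested. Lrg1 had 600 CPM (565 to 637) in marker-positive BEC and 4.80 CPM in PBS BEC (125-fold, 63.2 to 290), and was found in 89.4% and 1.84% of the cells. The matrix proteins Vwa1 (229 against 1.80 CPM), Tgfbi (448 against 4.80 CPM) and Vcan (176 against 2.40 CPM) were likewise rare in PBS BEC. Fscn1, an actin-bundling protein of migrating cells, had 299 UMIs against 0 (at least 91.8-fold). The remaining 5 of the 10 most raised genes were Mdk, Ltbp2, Col15a1, Upp1 and Fabp4. Lrg1 was also 191 CPM in the other LCWE BEC, so LCWE BEC that missed the rule also lay above PBS BEC.

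Among the 10 genes most reduced against PBS BEC, Col4a4 and Col4a3, chains of a specialised collagen IV, had 1 and 4 UMIs in marker-positive BEC against 418 and 158 in PBS BEC. Adh7, an alcohol dehydrogenase that handles retinol, had 18.8 and 712 CPM, and Adra2a, an adrenergic receptor, 3.87 and 241 CPM. Klk11 had 0 UMIs against 126 (at least 45.6-fold lower). Klk10, Adh1, Pkhd1l1, Clic5 and Pcolce2 completed the 10.

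Vcam1, an adhesion molecule induced by inflammation, did not mark the cells. It had 389 CPM (361 to 419) in marker-positive BEC, 745 CPM in the other LCWE BEC and 999 CPM in PBS BEC, and 140 CPM in Aplnr cells. Of 17 measured leukocyte adhesion genes 2 were higher and 2 lower than in the other LCWE BEC (median -0.20). Class I antigen presentation genes gave 0 higher and 0 lower of 13 (median -0.56), and those of interferon gamma response 0 higher and 2 lower of 14 (median -0.11). Of 12 class I genes measured against the other LCWE BEC, 3 were lower in Glycam1 cells (median -0.81) and 0 in Aplnr cells (median -0.04). Within the marker-positive cells, interferon gamma genes were higher in Aplnr cells for 8 of 11 measured and lower for 0. Their sum had a median of 551 CPM per Aplnr cell (0 to 3293) and 280 CPM per Glycam1 cell (0 to 1460), with overlapping ranges. The median was 532 CPM in the other LCWE BEC and 603 CPM in PBS BEC, so Aplnr cells lay near these sets and Glycam1 cells below them. Against the other LCWE BEC, 4 of 14 measured genes were higher and 1 lower in Aplnr cells, and 0 of 13 higher and 6 lower in Glycam1 cells.

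Class II antigen presentation genes were higher than in PBS BEC for all 6 measured (median log2 ratio 3.69) but level with the other LCWE BEC (0 of 6 at 2-fold). They rested on few cells: Cd74, the invariant chain, had 1056 CPM in Aplnr cells with 63.1% of the UMIs in 1 cell, and 379 CPM in Glycam1 cells with 85.8% in 1 cell. With only cells of 5000 to 15000 UMIs the log2 ratio of Cd74 between Aplnr and Glycam1 cells turned to -0.14. Macrophage and monocyte markers gave up to 166 UMIs in a marker-positive cell and 293 in another LCWE BEC, and their part in the class II values was not tested.

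Immediate early genes, which respond to tissue dissociation, were higher in Aplnr cells than in Glycam1 cells for 10 of 16 genes and lower for 0, with a median sum per cell of 13506 CPM (674 to 39919) and 3798 CPM (582 to 17155). Their part in the other differences was not tested. Between all marker-positive cells and the other LCWE BEC 0 of 16 passed 2-fold in either direction.

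The apelin ligand and its receptor were found together in 1 cell. Apln had 88 UMIs in 8 of the 113 cells, and 1 of the 8 held Aplnr, which was found in 29 of the 113. With 8 cells this overlap cannot be told apart from the share of Aplnr over all 113 cells. Of the 76 UMIs in cells with neither gene, 93.4% came from 1 cell that was selected through Fam167b. With Fam167b left out of the rule that cell moved to the other LCWE BEC, and the log2 ratio of Apln turned to -2.43 from 4.24. Among VEGF receptors Flt1 had 731 CPM in Aplnr cells, 333 CPM in Glycam1 cells and 223 CPM in the other LCWE BEC, and Calcrl, the adrenomedullin receptor, 192, 22.6 and 56.6 CPM. Pgf, a VEGF family ligand, had 84.2% of the UMIs of Aplnr cells in 1 cell.

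Of 27 endothelial transcription factors measured between Aplnr and Glycam1 cells, 10 were higher and 2 lower in Aplnr cells. Ebf1 had 376 and 20.2 CPM (18.6, 11.2 to 32.8), Meox1 140 and 13.1 CPM (10.7, 5.53 to 22.7) and Prdm1 85.6 and 10.7 CPM (7.99, 3.74 to 19). Ets1, a factor of angiogenic endothelium, was raised in both, at 527, 218 and 113 CPM in Aplnr cells, Glycam1 cells and the other LCWE BEC.

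Further genes that differed between Aplnr and Glycam1 cells, picked after their values were seen, had other roles. Tacr1, the receptor of substance P, had 58 UMIs in Aplnr cells and 0 in Glycam1 cells, in cells with neither, in the other LCWE BEC and in PBS BEC, and Aplnr cells held 89.2% (79.1 to 95.6) of its UMIs in the LCWE library. Csf2rb2 had 56 UMIs and 0, the lipase Mgll 53 and 0, and Cd300lg, a receptor of capillary and high endothelium, 36 and 0. Pcdh17 had 332 and 2.38 CPM, the integrin Itga6 311 and 11.9 CPM, and stem cell factor (Kitl) 228 and 10.7 CPM. In the other direction the keratin Krt18 had 0 UMIs in Aplnr cells and 256 in Glycam1 cells, and the Wnt antagonist Frzb 0 and 180.

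Cycling genes gave 5 higher and 0 lower of 15 against the other LCWE BEC. Few cells carried them: Mki67 was found in 1 of 28 Aplnr cells, 3 of 42 Glycam1 cells, 3 of 42 cells with neither and 4 of 126 other LCWE BEC. Cells with 8 or more of the 18 cycling genes numbered 1, 4, 0 and 2 in these sets.

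Markers of other cell types were not absent. Smooth muscle markers, described above, summed to 2617 CPM in marker-positive BEC and 910 CPM in the other LCWE BEC, with up to 512 UMIs in a cell. Lymphatic markers summed to 138 CPM in marker-positive BEC and 36.9 CPM in the other LCWE BEC, with 3 of 8 genes at 0: Nts, a neuropeptide gene on that list, made up most of them (159 UMIs against 1), while the lymphatic master regulator Prox1 had 29 UMIs against 2. Granulocyte markers summed to 288 and 103 CPM, with up to 217 UMIs in a cell. Macrophage and monocyte markers (325 and 1146 CPM), T and NK cell markers (123 and 239 CPM) and red cell and platelet markers (1013 and 11828 CPM) were lower in marker-positive BEC. For red cell and platelet markers the sum of the other LCWE BEC was drawn up by cells with very many UMIs. Their median was 15 UMIs per marker-positive cell and 13 per other LCWE BEC, with up to 62 and 3550 UMIs in a cell. In PBS BEC granulocyte markers summed to 10.2 CPM, macrophage and monocyte markers to 42.0 CPM, T and NK cell markers to 15.6 CPM and red cell and platelet markers to 70.8 CPM. Red cell and platelet UMIs per cell, at 16.2, were close to the 15.9 per lymphocyte. Fibroblast markers summed to 1080 CPM in marker-positive BEC and 920 CPM in the other LCWE BEC, with 285 CPM in Aplnr cells and 1467 CPM in Glycam1 cells. Pericyte markers summed to 52.6 CPM in marker-positive and 27.5 CPM in the other LCWE BEC, with up to 62 UMIs in a cell. B cell markers summed to 3.32 and 0.858 CPM, and all 6 mesothelial markers were at 0. The part of these transcripts in the other results was not tested.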

How the data were processed

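Single cells were counted with Cell Ranger 3.0.2 against mm10, per the submitters' processing notes. The authors deposited UMI counts that are not normalized, for 27998 genes, and a cell table with cell classes, the percent of mitochondrial UMIs and a doublet score from a caller that the deposited table does not name. The deposited calls of doublets and dead cells are negative for all 10477 cells. Totals recomputed from the counts equal the deposited ones in all cells. Cell classes are the authors'. The LCWE library held 42275754 UMIs (median 5508 per cell) and the PBS library 62600808 (median 11252.5).

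UMIs were summed over sets of cells, with exact Poisson intervals for CPM, exact conditional binomial intervals for ratios and Clopper-Pearson intervals for shares, at 95% (Python 3.11.15, scipy 1.17.1, scanpy 1.11.5). For ranks and log2 ratios a sum under 3 UMIs was raised to 3. Total UMIs were 1807722 in marker-positive BEC, 1165334 in the other LCWE BEC and 1665902 in PBS BEC. Clusters used 20 principal components and Leiden resolution 0.5. Positions are from GENCODE M21.

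The members and lists were chosen with earlier results of these data known. Named genes were the 20 highest and 10 lowest ratios (10 and 10 against PBS BEC) with at least 30 UMIs in the higher set, an interval beyond 1.5-fold, no cell over 20% of those UMIs and 5% or more of the highest class, without mitochondrial, ribosomal, haemoglobin, antigen receptor, sex-linked, unnamed or other-type marker genes. Up to 6 members per list could be added, those at least 2-fold different and most abundant first, and a part of them was picked for the text after their values were seen. Markers are named by the lists. Mx2, Trbc2 and Ighm of the lists were not matched. The sums were tested on simulated counts.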

Additional observations from a re-analysis of the deposited data

How the results depend on the processing

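The settings run covered the selection rule, depth, cell quality, scaling and gene filters. Of the counts of genes and shares of cells under them, 99 stayed close to the reported value and 17 moved. The share of marker-positive cells was 37.2% of LCWE BEC and 0.461% of PBS BEC with 2 or more UMIs, 36.8% and 0.461% without Tmem252 in the rule, and 31.9% of LCWE BEC after thinning to 3000 UMIs. Thinning left 258 genes higher than in the other LCWE BEC and 585 higher than in PBS BEC, and 118 higher and 129 lower between Aplnr and Glycam1 cells. With at least 50 UMIs the counts were 291 higher and 255 lower against the other LCWE BEC, 698 and 595 against PBS BEC, and 305 and 367 between Aplnr and Glycam1 cells. Cells of 5000 to 15000 UMIs, added after seeing the data, gave 257 higher and 292 lower between Aplnr and Glycam1 cells. Fewer cells, UMIs or genes enter each of these counts.

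Of the values for single genes and lists, 1602 stayed close, 277 moved and 6 reversed. Only values at least 2-fold in the reported setting could count as reversed, so smaller values that changed sign are not among the 6. Between Aplnr and Glycam1 cells the median log2 ratio of the venule and vein list ran from -0.46 to 0.82. That of the cycling list ran from -2.84 to 1.44. Against PBS BEC the high endothelial venule list ran from -0.71 to 0.51. On the log2 scale Apln against the other LCWE BEC was -2.43 without Fam167b in the rule. After thinning, the smooth muscle list was -0.13 and Acta2 -0.11 against the other LCWE BEC, and the basement membrane list was -0.081 between Aplnr and Glycam1 cells. With cells of 5000 to 15000 UMIs the class II list and Cd74 were -0.14 between these sets. The cause was not tested. For Apln 1 cell with 93.4% of the UMIs of its set changed sides. After thinning cells changed sides as well, with 72 marker-positive and 154 other LCWE BEC, because the rule was applied to the thinned counts.

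Leaving out cells with 3 or more UMIs of other cell types' markers left 0 marker-positive cells and gave no value. Without Aplnr or Glycam1 in the rule, Aplnr and Glycam1 cells were not compared. In clusters at resolution 0.3 or 1.0, or of LCWE BEC alone, most Aplnr and most Glycam1 cells again fell in different clusters. No paired analysis was possible because each condition has 1 library. Rare transcripts are limited by the few cells, and at 28 Aplnr cells 1 cell can carry a gene.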
